A study of Mus musculus with 12 samples.

Results

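The 10 genes of the tumour necrosis factor (TNF) superfamily described here in mouse brain, 5 ligands and 5 receptors, are taken out of 21983 genes in the deposited RNA-seq count table. They were chosen by their symbols. The ligands are Tnf, Lta, Ltb, Tnfsf10 and Tnfsf13b, and the receptors are Tnfrsf1a, Tnfrsf1b, Tnfrsf25, Fas and Ltbr. All 10 were found in the table.

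The 12 libraries were made from brain RNA of wild-type C57BL/6 mice aged 6 weeks. The first of the 3 groups holds 4 libraries of mice with experimental cerebral malaria (ECM) that were given the antimalarial drug artesunate for 4 days, called treated ECM. The other two groups are mice with ECM and no artesunate on their labels (4 libraries) and normal mice (4 libraries), called control. The sources used here do not give the parasite strain, the day of infection, the dose or whether each library is a separate animal, so p-values measure the spread between these samples, which may be technical. Uninfected mice given artesunate were not analysed here. The brain is a mixture of cells, so fewer cells of a type and less RNA per cell cannot be told apart in any value below.

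Ligands of the TNF superfamily are trimers, mostly anchored in the membrane and in some cases cut free by proteases, and each binds its own small set of receptors. Receptors that carry a death domain (Tnfrsf1a, Tnfrsf25, Fas and the TRAIL receptor) can recruit caspases. Receptors that bind TRAF adaptors (Tnfrsf1b, Ltbr and many others) signal to NF-kB, which switches on inflammatory genes. In brain vessels, TNF is known for raising leukocyte adhesion molecules on the endothelium.

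The 10 genes lie on 6 chromosomes of build mm10 (positions from GENCODE M21). Ltb, Tnf and Lta are neighbours on chromosome 17, where Ltb spans 35194439 to 35196320 on the plus strand, Tnf 35199381 to 35202007 and Lta 35203165 to 35205351, both on the minus strand. The 3 genes occupy 10913 bases, with 1157 bases between Tnf and Lta and 3060 between Ltb and Tnf. No annotated exon of another gene overlapped an exon of any of the 10 genes (0 shared bases each), a check made because nothing in the labels says that reads were counted by strand.

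The stretches of 250 bases upstream of the RefSeq starts of Tnf and Tnfsf10 are printed here because Tnf was at 0 counts in control and Tnfsf10 rose in all 3 comparisons. They are RefSeq sequence of build GRCm38.p6, written 5′ to 3′ on the gene's own strand. The Tnf window lies at chr17:35202008-35202257 on the minus strand and that of Tnfsf10 at chr3:27316827-27317076 on the plus strand. Capitals mark TATAAA in Tnf and the interferon-element core AANNGAAA, on either strand, in Tnfsf10.
Tnf: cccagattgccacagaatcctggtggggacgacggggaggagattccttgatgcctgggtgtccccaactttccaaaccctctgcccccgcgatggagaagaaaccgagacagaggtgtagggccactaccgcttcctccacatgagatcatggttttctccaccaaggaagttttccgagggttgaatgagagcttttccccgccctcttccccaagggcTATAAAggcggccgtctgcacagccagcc
Tnfsf10: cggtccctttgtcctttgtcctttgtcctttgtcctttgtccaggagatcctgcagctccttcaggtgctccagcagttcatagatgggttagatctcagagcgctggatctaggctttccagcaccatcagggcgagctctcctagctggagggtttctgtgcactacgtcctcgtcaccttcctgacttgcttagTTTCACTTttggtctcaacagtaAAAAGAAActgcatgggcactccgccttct

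The TATAAA of Tnf, searched on the gene's own strand, begins 29 bases before the RefSeq start. The same letters occurred in 7.59% of all 32841 RefSeq promoter windows of this length, and among the 10 genes also in Lta, 167 bases before its start. In Tnfsf10 the 2 matches to AANNGAAA begin 53 and 30 bases before the RefSeq start, which lies 49 bases downstream of the GENCODE start of this gene, 27317028, so the second match lies inside the GENCODE gene. For Tnf both annotations give the same start. AANNGAAA, searched on both strands, occurred in 21.3% of all windows and in 4 of the 10 genes (Tnfsf10, Tnfsf13b, Tnfrsf1b and Fas). TTCNNNGAA, the letters of STAT elements, occurred in 7.02% of all windows and in 6 of the 10 genes (Lta, Ltb, Tnfrsf1a, Tnfrsf1b, Tnfrsf25 and Fas). The NF-kB consensus occurred in 7.25% of all windows and in Ltb and Tnfrsf25. Tnfsf13b and Tnfrsf25 were searched at more than 1 annotated start. A match is a run of letters and not a shown binding site.

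Depth was 14250893 to 18381410 counts per treated ECM library, 13342177 to 18886822 per ECM library and 13422447 to 18337509 per control library. Genes with names of 8 or more characters run over 2 cells of the table, and for them the value of treated ECM 4 could not be read with certainty. Tnfsf13b, Tnfrsf1a, Tnfrsf1b and Tnfrsf25 are such genes, so their treated values come from 3 libraries. Control 4, ECM 2 and ECM 3 stood apart from the other libraries in how counts varied with the GC content of genes: the rank correlation across 13742 genes (which are not independent replicates) was -0.652, -0.316 and -0.464 in these libraries and -0.041 to 0.534 in the other 9. Member results whose call or size changed markedly without these 3 libraries are given with and without them. By group, the same rank correlation was 0.403 to 0.511 in treated ECM, -0.464 to 0.534 in ECM and -0.652 to 0.318 in control. It was thus positive in each treated ECM library and of both signs in the other groups. Summed neuronal markers were 4890 to 5650 CPM (counts divided by the scaled library size) in treated ECM, 5230 to 6910 in ECM and 4790 to 7670 in control libraries, with all 6 markers detected in each group. Summed cerebellar markers ranged from 205 to 1580, 51.9 to 2850 and 173 to 1690 CPM within the same 3 groups, so libraries of the same group differed widely in them.

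In ECM brains, 6 of the 10 genes rose against control: the ligands Tnf and Tnfsf10 and the receptors Tnfrsf1a, Tnfrsf1b, Fas and Ltbr. Of 14599 genes tested, 10.3% were called in this comparison (edgeR's quasi-likelihood test, Benjamini-Hochberg adjusted p below 0.05 over all genes tested), 7% higher and 3.26% lower. Tnfsf10 and Tnfrsf25 rose in treated ECM against ECM and no member fell by the test, with 8.34% of all genes called, 3.3% higher and 5.03% lower. Those 2 calls became 1 without treated ECM 2, treated ECM 3, ECM 2 or control 1, and 4 without control 4. Only Tnfsf10 among the 8 tested members passed in treated ECM against control, with 2.04% of all genes called, 1.99% higher and 0.0548% lower. Lta and Ltb had too few counts to enter the test. The 6 calls of ECM against control were also made without control 4, ECM 2 and ECM 3 (edgeR adjusted p of 0.000437 to 0.0169).

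The members that entered the test did not do so in the same way. The filter on low values asked for 0.651 CPM in enough libraries. Tnf reached it in 1 treated ECM library, 3 ECM libraries and 0 control libraries, so it entered through the groups in which it was higher. Tnfrsf25 reached it in 2 treated ECM libraries, 0 ECM libraries and 1 control library. Of the groups in treated ECM against ECM, only the one in which it was higher let it enter. Tnfsf10, Tnfsf13b, Tnfrsf1a, Tnfrsf1b, Fas and Ltbr reached it in every library used. The median log2 fold change over the 8 tested members was 1.73 in ECM against control, -0.92 in treated ECM against ECM and 1.12 in treated ECM against control, beside medians over all genes of -0.02, 0.01 and 0.00.

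**Figure D1:**
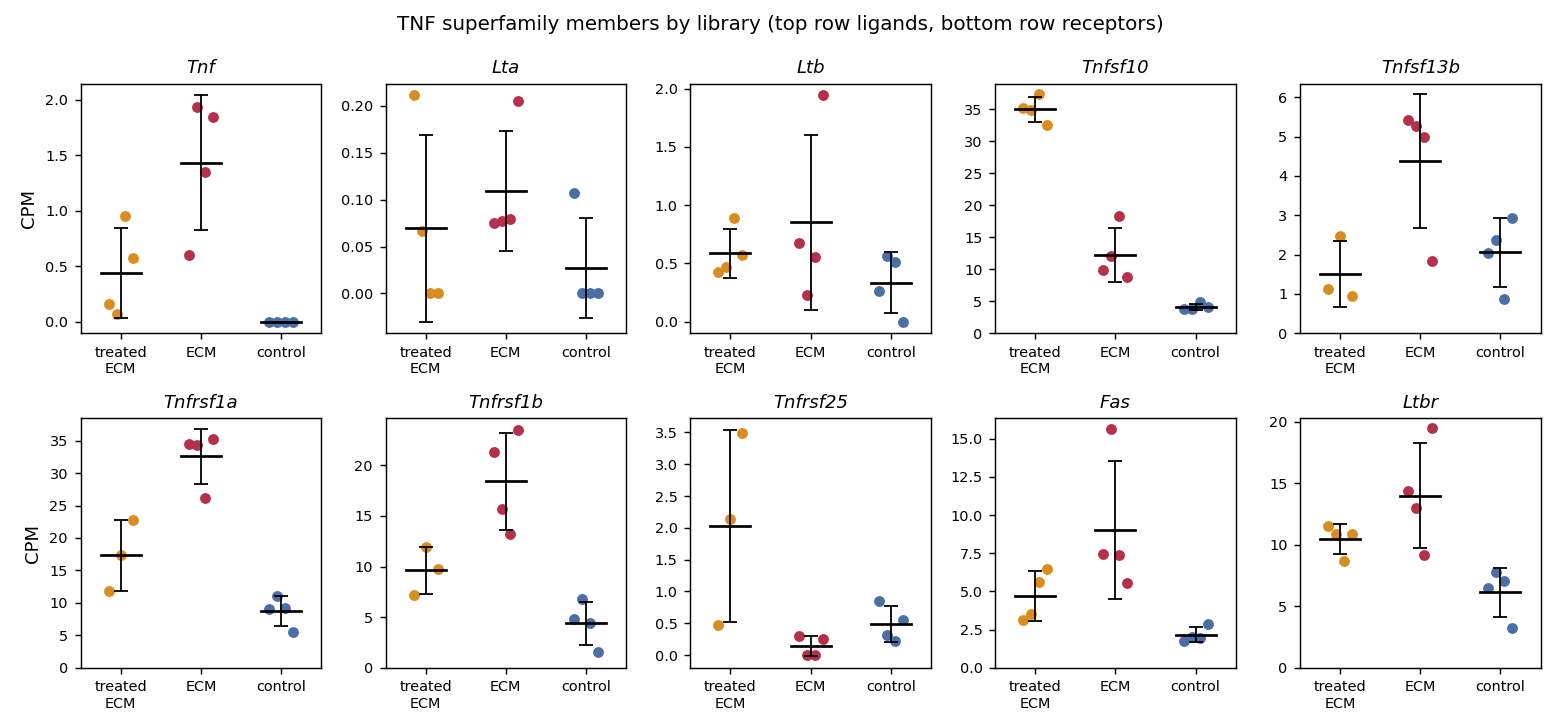
Levels of the 10 genes in each library, in CPM on a linear axis of its own for each gene; points are libraries, the thick line is the group mean and the bars are ± 1 SD. Tnf was at 0 in all 4 control libraries, and the 4 treated ECM libraries had the highest Tnfsf10 levels (32.6 to 37.3 CPM).

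Tnf, the inflammatory cytokine that gives the family its name, was absent from the control counts and low everywhere. Treated ECM libraries 1 to 4 held 3, 1, 15 and 9 counts of Tnf, ECM libraries 8, 25, 17 and 36, and control libraries 0, 0, 0 and 0. The levels were 0.159, 0.0669, 0.951 and 0.570 CPM in treated ECM and 0.602, 1.94, 1.35 and 1.84 CPM in ECM. Every ECM library was above every control library, and ECM 1 lay within the range of treated ECM.

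Tnf rose in ECM against control (edgeR adjusted p = 0.00291). With 86 counts in ECM and 0 in control, it was at least 31-fold higher in ECM, taking 3 counts over the 4 control libraries as the limit that a count of 0 allows and the 86 counts as exact. With counting error in both groups, the lower 95% limit of the ratio was 24.7. In treated ECM it averaged 0.437 ± 0.407 CPM, against 1.43 ± 0.610 CPM in ECM (SD, n = 4 each). That log2 difference of -1.71 ± 0.66 (SE) did not pass (edgeR adjusted p = 0.136, 95% interval -3.19 to -0.24). Against control, the 28 counts of treated ECM gave at least a 9-fold higher level by the same limit, with a lower 95% counting limit of 6.85, and the difference did not pass (edgeR adjusted p = 0.0864). It did pass without treated ECM 2 (edgeR adjusted p = 0.0472). Bounds from counts cover counting error only.

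Lta and Ltb, the lymphotoxins, were close to the limit of detection. Lta, whose product binds both TNF receptors, had 4, 1, 0 and 0 counts in treated ECM, 1, 1, 1 and 4 in ECM and 2, 0, 0 and 0 in control. The ratio of ECM to control was 3.78 with a 95% counting interval of 0.72 to 37.3. No difference was detectable at this depth (exact two-sided permutation test of ECM against control over libraries, p = 0.114).

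Ltb, whose product joins that of Lta in a membrane heterotrimer that binds Ltbr, had 8, 7, 14 and 9 counts in treated ECM, 9, 3, 7 and 38 in ECM and 5, 9, 7 and 0 in control. Of the 57 counts in ECM, 38 came from ECM 4. The groups overlapped in all 3 comparisons. The exact two-sided permutation p was 0.714 in treated ECM against ECM, 0.229 in ECM against control and 0.229 in treated ECM against control. The smallest p that 4 against 4 libraries can give is 0.0286, and all 9 exact tests run in this family had adjusted p-values of 0.686 to 0.914. With this floor, no single test among the 9 could pass after adjustment, even with groups fully apart. The adjusted values therefore cannot decide on any 1 comparison.

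Tnfsf10, which encodes the death ligand TRAIL (chromosome 3, 27317028 to 27342427), was the only member that rose in every comparison. Its levels were 35.2, 35.0, 37.3 and 32.6 CPM in treated ECM, 9.93, 12.1, 18.3 and 8.70 CPM in ECM, and 3.84, 3.69, 4.82 and 4.10 CPM in control. The 3 groups did not overlap anywhere: each treated ECM library was above each ECM library, and each ECM library above each control library. The spread was also small in treated ECM, where the counts were 666, 523, 589 and 514. This was not particular to Tnfsf10. Over genes with shorter names and enough counts, pairs of treated ECM libraries gave a chi-square per degree of freedom of 8.76 to 23.4. It was 31.3 to 176 between ECM libraries and 13.2 to 141 between control libraries.

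In treated ECM, Tnfsf10 averaged 35.0 ± 1.96 CPM, against 12.2 ± 4.25 CPM in ECM and 4.11 ± 0.501 CPM in control (SD, n = 4 each). It was 2.87-fold higher in treated ECM than in ECM (log2 1.52 ± 0.22 SE, edgeR adjusted p = 0.00159). It was 2.97-fold higher in ECM than in control (log2 1.57 ± 0.22, edgeR adjusted p = 0.000338). Treated ECM stood 8.51-fold above control (log2 3.09 ± 0.23, edgeR adjusted p = 3.82e-06). Each group enters 2 of these comparisons, so the 3 differences are not independent. Leaving out control 4, ECM 2 and ECM 3 together kept all 3 calls, with log2 differences of 1.91 for treated ECM against ECM, 1.18 for ECM against control and 3.09 for treated ECM against control. ECM 3 alone held the highest ECM level.

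Of the receptors that bind mouse TRAIL, the death-domain receptor Tnfrsf10b had its highest mean in ECM and not in treated ECM. It averaged 0.995 ± 0.286 CPM in treated ECM (n = 3), against 3.18 ± 1.65 CPM in ECM and 1.14 ± 0.174 CPM in control (SD, n = 4 each). It rose in ECM against control (log2 1.47 ± 0.38, edgeR adjusted p = 0.025) and fell in treated ECM against ECM (log2 -1.66 ± 0.42, edgeR adjusted p = 0.0315). The decoy receptor Tnfrsf23 also rose in ECM, to 1.06 ± 0.368 CPM against 0.316 ± 0.0985 CPM in control (log2 1.71 ± 0.43, edgeR adjusted p = 0.0236). The decoy receptor Tnfrsf22 had 2.24 ± 0.721 CPM in ECM and 2.24 ± 0.971 CPM in control (log2 0.00 ± 0.36, edgeR adjusted p = 0.998). Like the members with long names, these genes have 3 treated values.

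Tnfsf13b encodes BAFF, a survival factor for B cells (chromosome 8, 10006467 to 10039072). It had 1.11, 2.47 and 0.951 CPM in treated ECM 1 to 3, 5.42, 5.26, 5.001 and 1.84 CPM in ECM, and 2.03, 2.38, 0.877 and 2.94 CPM in control. ECM 1 to 3 were above all other libraries, and ECM 4 lay within the control range. No difference passed: the log2 difference was -1.53 ± 0.51 in treated ECM against ECM (edgeR adjusted p = 0.0824, 95% interval -2.63 to -0.43) and 1.08 ± 0.45 in ECM against control (edgeR adjusted p = 0.173, interval 0.10 to 2.06). Treated ECM against control gave -0.45 ± 0.50 (edgeR adjusted p = 0.689). Without ECM 4, treated ECM against ECM gave -1.79 and passed (edgeR adjusted p = 0.0306). Of its receptors, Tnfrsf13b had 2 ± 0.602 CPM in treated ECM (n = 3), 2.08 ± 0.396 CPM in ECM and 1.25 ± 0.393 CPM in control, and was not called. Tnfrsf13c and Tnfrsf17 had too few counts to be tested. Summed B cell markers were 0.951 to 2.41 CPM in treated ECM, 1.24 to 5.64 in ECM and 1.09 to 3.78 in control.

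Both TNF receptors rose in ECM. Tnfrsf1a, the death-domain receptor TNFR1 found on most cells (chromosome 6, 125349362 to 125362484), had 11.9, 17.3 and 22.8 CPM in treated ECM 1 to 3, 34.5, 34.4, 26.1 and 35.2 CPM in ECM, and 9.12, 11.02, 9.28 and 5.54 CPM in control. The 3 groups did not overlap, with treated ECM between the other two. Tnfrsf1a was 3.72-fold higher in ECM than in control (log2 1.90 ± 0.25, edgeR adjusted p = 0.000291).

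In treated ECM, Tnfrsf1a averaged 17.4 ± 5.47 CPM (SD, n = 3), against 32.6 ± 4.31 CPM in ECM and 8.74 ± 2.30 CPM in control (n = 4 each). Its difference from ECM just missed the threshold (log2 -0.91 ± 0.27, edgeR adjusted p = 0.0566, interval -1.49 to -0.33). That difference passed without control 4, ECM 2 and ECM 3 (log2 -1.02, edgeR adjusted p = 0.0173) and without control 4 alone (edgeR adjusted p = 0.0221). The count of treated ECM 4 in the authors' deposited table was 321, or 20.3 CPM, within the range of the other treated libraries. With it, both differences of treated ECM passed, at log2 -0.85 against ECM (edgeR adjusted p = 0.0416) and 1.05 against control (edgeR adjusted p = 0.0382). Without it, the log2 difference from control was 0.99 ± 0.26 (edgeR adjusted p = 0.108), and it passed without treated ECM 1 (log2 1.20, edgeR adjusted p = 0.0435).

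Tnfrsf1b, the TRAF-binding receptor TNFR2 that is typical of immune and endothelial cells (chromosome 4, 145213463 to 145246870), had 7.19, 11.9 and 9.77 CPM in treated ECM 1 to 3. Its levels were 21.3, 15.7, 13.2 and 23.5 CPM in ECM and 4.85, 6.76, 4.38 and 1.57 CPM in control. As for Tnfrsf1a, the groups did not overlap and treated ECM lay between the others. It rose 4.19-fold in ECM against control (log2 2.07 ± 0.37, edgeR adjusted p = 0.00293). The log2 difference of treated ECM from ECM was -0.94 ± 0.39 (edgeR adjusted p = 0.152, interval -1.79 to -0.09) and that from control 1.13 ± 0.39 (edgeR adjusted p = 0.28). Treated ECM against ECM passed without control 4, ECM 2 and ECM 3 (log2 -1.23, edgeR adjusted p = 0.00944) and without control 4 alone (edgeR adjusted p = 0.0372).

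The balance of the 2 TNF receptors was compared per exon length, as the ratio of Tnfrsf1b to Tnfrsf1a in each library. The ratio was 0.410, 0.466 and 0.290 in treated ECM, 0.418, 0.310, 0.342 and 0.454 in ECM, and 0.361, 0.416, 0.321 and 0.193 in control. All 3 groups overlapped, and Tnfrsf1a was the higher of the pair in each library. The mean log2 ratio was -1.39 in treated ECM, -1.41 in ECM and -1.69 in control, and no pair of groups passed (exact two-sided permutation tests, p = 0.914 for treated ECM against ECM, 0.429 and 0.457 for the others).

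Tnfrsf25, the death-domain receptor DR3 best known on T cells (chromosome 4, 152115934 to 152120119), was higher in treated ECM than in ECM. It had 9, 32 and 55 counts in treated ECM 1 to 3, 4, 0, 0 and 5 in ECM, and 16, 5, 3 and 8 in control. The levels were 0.476, 2.14 and 3.49 CPM in treated ECM, 0.301, 0, 0 and 0.256 CPM in ECM and 0.853, 0.313, 0.219 and 0.547 CPM in control. Every treated ECM library was above every ECM library, while treated ECM 1 lay within the control range.

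It rose 12.9-fold in treated ECM against ECM (log2 3.69 ± 0.87, edgeR adjusted p = 0.0234, interval 1.80 to 5.57). This fold rests on 9 counts over the ECM libraries, with ECM 2 and ECM 3 at 0. The gene entered the test through treated ECM and control 1, and no ECM library reached the filter level. Over the omissions of 1 library the log2 difference ran from 3.05 to 4.2. The call was lost without treated ECM 2 (log2 3.65, edgeR adjusted p = 0.0663), without treated ECM 3 (log2 3.05, 0.0976) and without ECM 2 (log2 3.32, 0.0526). It was also lost without control 4, ECM 2 and ECM 3 together (log2 2.83, edgeR adjusted p = 0.0637), and without control 1 the gene no longer passed the filter. The authors' deposited count for treated ECM 4 was 44, or 2.79 CPM, and with it the log2 difference was 3.81 (edgeR adjusted p = 0.0116). The log2 difference of ECM from control was -1.67 ± 0.90 (edgeR adjusted p = 0.311; -0.79 without the 3 libraries that stood apart) and that of treated ECM from control 2.02 ± 0.75 (edgeR adjusted p = 0.337). Tnfsf15, the ligand of this receptor, had 6 counts in treated ECM, 12 in ECM and 1 in control, and was not tested.

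Fas, the death receptor for Fas ligand (chromosome 19, 34290666 to 34327772), had 3.12, 3.54, 5.64 and 6.46 CPM in treated ECM. Its levels were 7.45, 15.6, 7.38 and 5.53 CPM in ECM and 1.76, 2.003, 1.97 and 2.87 CPM in control. Each ECM and each treated ECM library was above each control library, and ECM 2 held the highest value. It rose 4.17-fold in ECM against control (log2 2.06 ± 0.36, edgeR adjusted p = 0.00193).

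In treated ECM, Fas averaged 4.69 ± 1.62 CPM, against 8.998 ± 4.52 CPM in ECM and 2.15 ± 0.492 CPM in control (SD, n = 4 each). Its log2 difference from ECM was -0.94 ± 0.34 (edgeR adjusted p = 0.107, interval -1.68 to -0.20; -0.47 without control 4, ECM 2 and ECM 3) and from control 1.12 ± 0.36 (edgeR adjusted p = 0.208). The difference from control passed without control 4, ECM 2 and ECM 3 (log2 1.29, edgeR adjusted p = 0.0407). Fasl, its ligand, is made by cytotoxic lymphocytes. It averaged 0.342 ± 0.131 CPM in treated ECM, against 1.20 ± 0.682 CPM in ECM and 0.182 ± 0.222 CPM in control, and rose in ECM against control (log2 2.61 ± 0.68, edgeR adjusted p = 0.0245).

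Ltbr, the lymphotoxin beta receptor (chromosome 6, 125306571 to 125313885), had the smallest fold among the receptors that rose. It had 11.5, 10.8, 8.69 and 10.8 CPM in treated ECM, 14.4, 13.0, 9.13 and 19.4 CPM in ECM, and 6.50, 7.76, 7.01 and 3.21 CPM in control. Each treated ECM and each ECM library was above each control library, and treated ECM and ECM overlapped. Ltbr rose 2.29-fold in ECM against control (log2 1.19 ± 0.28, edgeR adjusted p = 0.0148). Its log2 difference in treated ECM against ECM was -0.42 ± 0.28 (edgeR adjusted p = 0.354, interval -1.02 to 0.18), and -0.70 without control 4, ECM 2 and ECM 3, which passed (edgeR adjusted p = 0.0202). The log2 difference of treated ECM from control was 0.77 ± 0.28 (edgeR adjusted p = 0.311). Over the 10 alternatives that were not omissions of 1 library, the log2 differences of treated ECM ran from -0.87 to -0.42 against ECM. Against control they ran from 0.37 to 0.78.

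**Figure D2:**
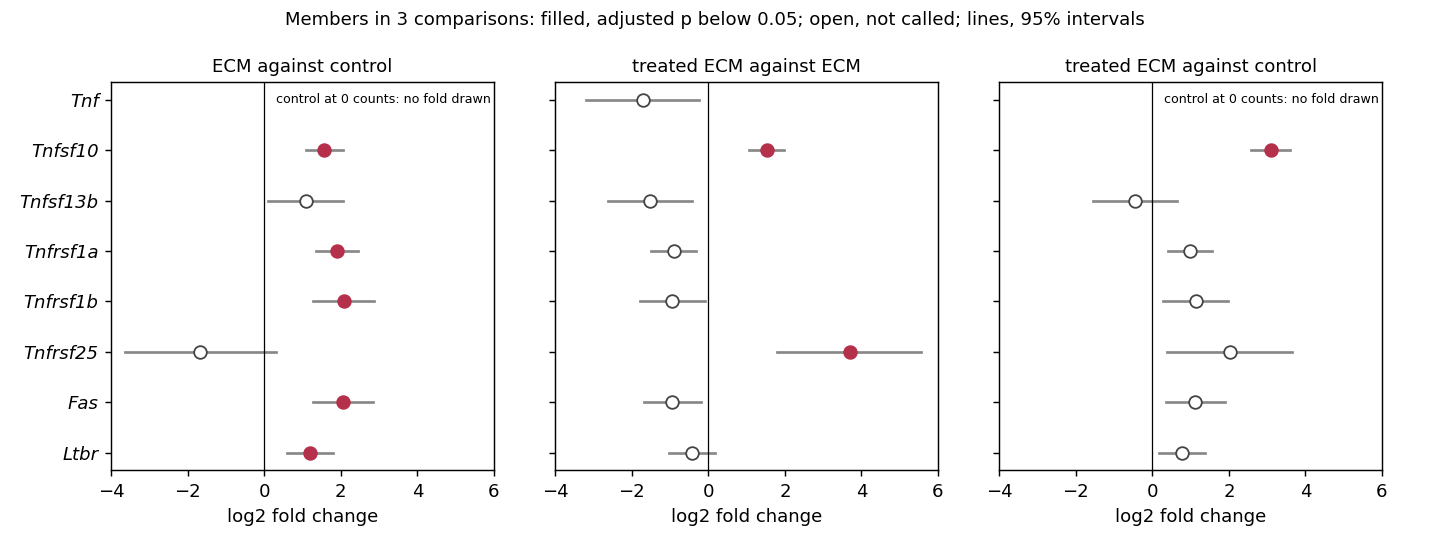
Log2 fold change (points) with 95% intervals (lines) of the 8 tested members in the 3 comparisons; filled points have an edgeR adjusted p below 0.05. Tnfsf10 is filled on the right of 0 in each panel, Tnf has no point where control held 0 counts, and the intervals of Tnf, Tnfsf13b, Tnfrsf1a, Tnfrsf1b and Fas lie below 0 in treated ECM against ECM without passing the adjusted threshold.

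Groups whose libraries did not overlap were counted for the members with the background beside them. In ECM against control, 6 of 10 members did not overlap, with 14.3% of all tested genes. It was 4 of 10 in treated ECM against ECM (Tnfsf10, Tnfrsf1a, Tnfrsf1b and Tnfrsf25), with 22% of all tested genes. It was 6 of 10 in treated ECM against control (Tnf, Tnfsf10, Tnfrsf1a, Tnfrsf1b, Fas and Ltbr), with 19.1%. Tnfrsf1a, Tnfrsf1b and Tnfrsf25 had 3 treated values, and fewer libraries separate more easily by chance. The 10 members include Lta and Ltb, which were not tested, while the background covers tested genes only.

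Compared per exon length, as RPKM (CPM divided by exon length in kilobases), Tnfrsf1a had the highest mean level of the 10 genes in each group, with 6.70 in treated ECM, 12.6 in ECM and 3.37 in control. In ECM it was followed by Ltbr (5.94), Tnfrsf1b (4.83), Fas (4.36) and Tnfsf10 (2.32), and only the step below Tnfrsf1a was larger than the spread between libraries. In control the order of these 5 genes was the same, at 2.60 RPKM for Ltbr, 1.15 for Tnfrsf1b, 1.04 for Fas and 0.781 for Tnfsf10, and each of these neighbours overlapped. In treated ECM, Tnfsf10 (6.65) stood beside Tnfrsf1a, with which it overlapped, and above Ltbr (4.45), with which it did not. Tnf was low per length, at 0.266 RPKM in treated ECM and 0.874 in ECM, below the means of the receptors Tnfrsf1a and Tnfrsf1b in both groups.

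**Figure D3:**
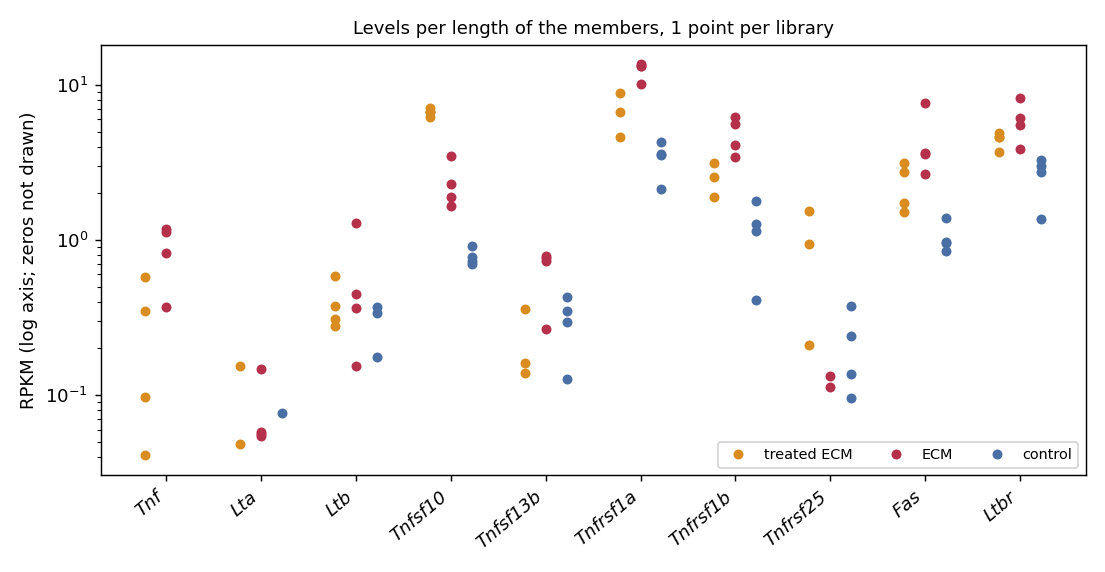
Level per exon length of the 10 genes in RPKM on a log axis, 1 point per library, with libraries at 0 not drawn. The receptors Tnfrsf1a and Ltbr lead in ECM and control, and Tnfsf10 joins them in treated ECM, with a mean of 6.65 RPKM.

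Other genes of the pathway were counted from 7 lists of 88 genes, of which 74 were tested. In ECM against control 27 rose and 0 fell, beside 10.3% of all genes called and 7% higher. The same shares are the background for the counts of each list below. For treated ECM against ECM 9 fell and 0 rose, beside 8.34% of all genes called and 5.03% lower. The 9 became 4 without treated ECM 1 or treated ECM 2 and 18 without control 4. The 1217 calls over all genes became 550 to 639 without any 1 of the treated ECM libraries, 1968 without ECM 4 and 2085 without control 4. For treated ECM against control 12 rose and 0 fell, beside 2.04% of all genes called. The lists were chosen with earlier results of these data known, so these counts are descriptions.

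Among the other ligands, 2 of 6 tested rose in ECM, Tnfsf8 and Fasl. Tnfsf8, the ligand of CD30, averaged 1.17 ± 0.725 CPM in treated ECM, against 4.59 ± 0.998 CPM in ECM and 0.165 ± 0.166 CPM in control. It rose in ECM (log2 4.77 ± 0.65, edgeR adjusted p = 0.00025) and fell in treated ECM against ECM (log2 -1.98 ± 0.52, edgeR adjusted p = 0.0344). Tnfsf14, the other ligand of Ltbr, had 8 counts in treated ECM, 29 in ECM and 0 in control and was not tested. Cd70 had 42 counts in treated ECM, 6 in ECM and 54 in control, with a log2 difference of -3.02 ± 0.95 in ECM against control that did not pass (edgeR adjusted p = 0.064).

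Among the other receptors, 6 of 18 tested rose in ECM and 2 fell in treated ECM against ECM. Cd27, a costimulatory receptor of T cells, averaged 0.270 ± 0.163 CPM in treated ECM, against 1.30 ± 0.451 CPM in ECM and 0.058 ± 0.0673 CPM in control. It rose in ECM (log2 4.21 ± 0.70, edgeR adjusted p = 0.00131) and fell in treated ECM against ECM (log2 -2.26 ± 0.57, edgeR adjusted p = 0.0289). Tnfrsf9, the activation receptor 4-1BB, rose in ECM to 2.65 ± 1.62 CPM, against 0.325 ± 0.207 CPM in control (log2 3.01 ± 0.52, edgeR adjusted p = 0.00176). The abundant receptors Tnfrsf19 and Tnfrsf21 were not called: Tnfrsf21 had 85.9 ± 8.58 CPM in treated ECM (n = 3), 97.5 ± 15 CPM in ECM and 88.9 ± 8.07 CPM in control.

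Of 16 adaptors next to the receptors that were tested, 2 rose in ECM, beside 7% of all genes called higher. So few calls do not set the adaptors apart from other genes. The list median log2 was 0.11. Birc3, a ubiquitin ligase of the receptor complex and a target of NF-kB, averaged 4.65 ± 0.758 CPM in treated ECM, against 15.8 ± 3.10 CPM in ECM and 2.25 ± 0.646 CPM in control. It rose in ECM (log2 2.80 ± 0.25, edgeR adjusted p = 7.25e-06), fell in treated ECM against ECM (log2 -1.76 ± 0.24, edgeR adjusted p = 0.00119) and was still higher in treated ECM than in control (log2 1.04 ± 0.24, edgeR adjusted p = 0.0431). Ripk1, the kinase at the branch between survival and death, rose to 14.6 ± 3.18 CPM in ECM, against 8.49 ± 2.09 CPM in control (log2 0.78 ± 0.21, edgeR adjusted p = 0.0281).

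Of 8 genes of the death branch, 4 rose in ECM, among them Mlkl, Ripk3 and Casp8. Mlkl, the executioner of necroptosis, averaged 1.84 ± 0.486 CPM in treated ECM, against 5.03 ± 1.42 CPM in ECM and 0.244 ± 0.140 CPM in control. It rose in ECM (log2 4.28 ± 0.42, edgeR adjusted p = 1.51e-05) and fell in treated ECM against ECM (log2 -1.45 ± 0.34, edgeR adjusted p = 0.0209). Casp8, the caspase recruited by death receptors, rose to 9.02 ± 3.73 CPM in ECM, against 3.30 ± 1.23 CPM in control (log2 1.45 ± 0.33, edgeR adjusted p = 0.0127).

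Of 11 genes for NF-kB subunits and feedback, 4 rose in ECM: Tnfaip3, Nfkb2, Nfkbia and Relb. Tnfaip3 encodes A20, an inhibitor that NF-kB itself induces. It averaged 9.85 ± 0.803 CPM in treated ECM, against 19.2 ± 5.40 CPM in ECM and 5.94 ± 0.603 CPM in control. It rose in ECM (log2 1.69 ± 0.21, edgeR adjusted p = 0.00012) and fell in treated ECM against ECM (log2 -0.97 ± 0.21, edgeR adjusted p = 0.0129). Relb, a subunit of the pathway used by Ltbr, had 7.64 ± 1.16 CPM in treated ECM, 7.56 ± 1.61 CPM in ECM and 3.52 ± 1.02 CPM in control, and was called higher in treated ECM than in control (log2 1.11 ± 0.26, edgeR adjusted p = 0.0393). Nfkb2 was called higher in treated ECM than in control as well (log2 1.45 ± 0.32, edgeR adjusted p = 0.0338).

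Among 6 genes that release TNF or control its mRNA, Zfp36 rose in ECM, and Zfp36 and Timp3 fell in treated ECM against ECM. Zfp36, which encodes tristetraprolin, a protein that destabilises Tnf mRNA, averaged 9.54 ± 1.01 CPM in treated ECM, against 32.7 ± 17.5 CPM in ECM and 2.98 ± 0.602 CPM in control. Its log2 difference was -1.78 ± 0.33 in treated ECM against ECM (edgeR adjusted p = 0.00625) and 3.45 ± 0.36 in ECM against control (edgeR adjusted p = 2.53e-05). Timp3, an inhibitor of the protease that frees TNF, fell in treated ECM to 149 ± 13.1 CPM, against 261 ± 45.7 CPM in ECM (log2 -0.81 ± 0.19, edgeR adjusted p = 0.0206). Adam17, that protease, had 22 ± 0.819 CPM in treated ECM, 21.3 ± 3.93 CPM in ECM and 25.1 ± 2.01 CPM in control, and was not called.

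Genes that TNF is known to induce in vessels and leukocyte recruitment had the largest folds of the 7 lists. Of 9 tested, 8 rose in ECM, 7 were still higher in treated ECM than in control and 1, Ccl2, fell in treated ECM against ECM. Lcn2, which encodes the iron-carrier protein lipocalin 2, had the largest fold, with 44.3 ± 26 CPM in treated ECM, 48.5 ± 30.7 CPM in ECM and 0.38 ± 0.163 CPM in control. Lcn2 rose in ECM (log2 7.01 ± 0.67, edgeR adjusted p = 1.34e-05), and its log2 difference in treated ECM against ECM was -0.13 ± 0.46 (edgeR adjusted p = 0.884). Ccl2, a monocyte chemokine, averaged 1.33 ± 0.625 CPM in treated ECM, against 12.2 ± 4.35 CPM in ECM (log2 -3.20 ± 0.44, edgeR adjusted p = 0.00134). The endothelial selectin Sele averaged 2.76 ± 0.741 CPM in treated ECM, against 1.38 ± 1.08 CPM in ECM and 0.0353 ± 0.0409 CPM in control, where only 2 counts were found. It was called in both comparisons with control (edgeR adjusted p = 0.000832 for treated ECM and 0.00138 for ECM). Selp, the other endothelial selectin, averaged 5.15 ± 2.21 CPM in treated ECM, against 3.67 ± 0.962 CPM in ECM and 0.172 ± 0.181 CPM in control.

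**Figure D4:**
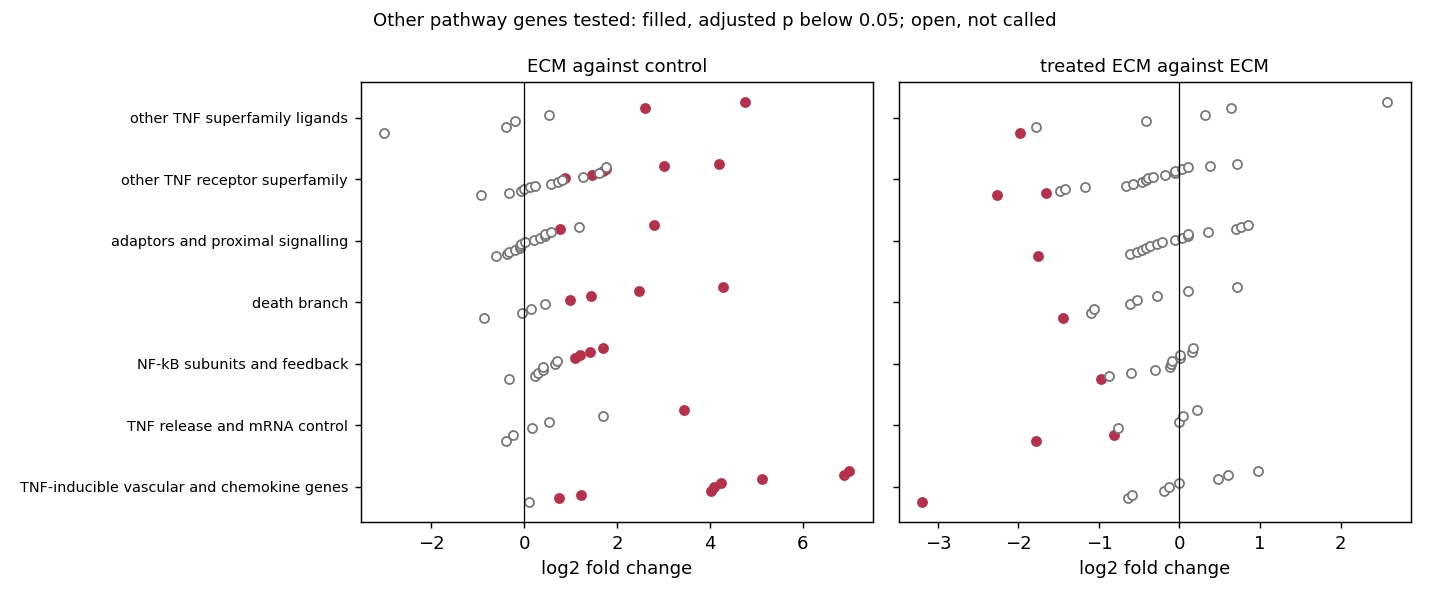
Log2 fold change of the tested genes of 7 pathway lists in 2 comparisons, 1 point per gene, with filled points for an edgeR adjusted p below 0.05. In ECM against control 27 filled points lie right of 0 and 0 left of it, and in treated ECM against ECM 9 lie left of it and 0 right of it.

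Some markers of blood cells, vessels and astrocytes also differed between the groups. Summed T and NK cell markers were 4.61 to 17.9 CPM in treated ECM, 31.8 to 60.0 in ECM and 0.0533 to 0.342 in control, and 7 of 7 tested markers rose in ECM. Cd3g, Cd8b1 and Ncr1 were at 0 in all control libraries. Summed monocyte markers were 82.2 to 141, 152 to 269 and 52.1 to 71.8 CPM in the same 3 groups, and 6 of 7 rose in ECM. Fn1, the marker that did not, had 97.8 ± 19 CPM in treated ECM, 70 ± 17.9 in ECM and 60.7 ± 10.8 in control. Without it, a choice made after the values were seen, the other 6 summed to 11.6 to 26.6 CPM in treated ECM, 83.3 to 222 in ECM and 0.511 to 1 in control. Each of these lists had 6 of 7 tested markers lower in treated ECM than in ECM.

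Summed neutrophil markers were 2.22 to 4.12 CPM in treated ECM, 3.23 to 8.90 in ECM and 0.188 to 0.480 in control, with Ly6g at 0 in all 12 libraries. Of 3 tested, 3 rose in ECM and 1, Mmp8, fell in treated ECM against ECM. Summed endothelial markers were 163 to 201 CPM in treated ECM, 292 to 344 in ECM and 143 to 199 in control, with 4 of 6 higher and 1 lower in ECM. Summed microglial markers were 278 to 393, 254 to 367 and 332 to 357 CPM, with 0 of 7 higher and 2 lower in ECM. Summed astrocyte markers were 1550 to 1790 CPM in treated ECM, 2240 to 3060 in ECM and 1530 to 1880 in control. Of these, 2 of 5, Gfap and Aldh1l1, rose in ECM and fell in treated ECM against ECM. Aqp4, Slc1a3 and Gja1 were not called (log2 0.01, 0.05 and -0.42 in ECM against control). Gfap averaged 916 ± 122 CPM in ECM, against 217 ± 44.8 CPM in control. The part of these cells in the levels of the 10 genes was not tested.

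The genes whose pattern over the 12 libraries was most like that of a member were taken by Pearson correlation of log2 CPM among 13037 other genes, as a description of libraries that share 3 groups. For Tnf they were Ccl7 (0.966), Cd8b1 (0.965) and Sp110 (0.962), and for Tnfsf10 Xdh (0.930), Vcam1 (0.922) and Apol10b (0.921). For Fas they were Mndal (0.975), Fcer1g (0.964) and Cp (0.960), and for Ltbr Pim1 (0.984), Cotl1 (0.975) and Itgb7 (0.972). Vcam1, the vascular adhesion molecule, averaged 79.8 ± 6.39 CPM in treated ECM, against 52.7 ± 14.2 CPM in ECM and 31.3 ± 5.30 CPM in control. Like Tnfsf10, its mean was highest in treated ECM, but its difference from ECM did not pass (log2 0.60 ± 0.19, edgeR adjusted p = 0.0671).

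The authors' deposited tables give their own tests, made with a tool not given in the sources used here. For Tnfsf10, the authors' deposited table lists log2 fold changes of 1.4995 in treated ECM against ECM, 1.59 in ECM against control and 3.09 in treated ECM against control. For Tnfsf13b in treated ECM against ECM, the authors' deposited table lists -1.41 with an adjusted p of 0.0157, past the threshold that the test here did not reach. In treated ECM against control, the authors' deposited table lists adjusted p-values of 0.0185 for Fas, 0.0167 for Tnf, 0.00475 for Tnfrsf1a, 0.0342 for Tnfrsf1b and 0.0198 for Tnfrsf25, none of which passed in the fit here. For Tnfsf13b, Tnfrsf1a, Tnfrsf1b and Tnfrsf25 the authors' tables hold a count of treated ECM 4, which the fit here left out, so the samples differ. With that count, Tnfrsf1a did pass against control here, as given above. Tnfsf13b, at 34 counts (2.15 CPM) in treated ECM 4, still did not pass in treated ECM against ECM (log2 -1.38, edgeR adjusted p = 0.071). Tnfrsf1b, at 178 counts (11.3 CPM) in treated ECM 4, and Tnfrsf25 still did not pass against control.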

How the data were processed

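Per the labels' protocols, brain RNA was taken up in Trizol and sequenced from NEBNext Ultra libraries. Trimmomatic, FastQC, STAR, HTSeq and build mm10 are named in the submitters' processing notes; the versions were not stated there. The count table gives the authors' read count per gene, unscaled, as deposited for 12 libraries. The 3 comparison tables deposited by the authors give a log2 fold change, a p-value, an adjusted p-value, read counts, a normalised signal and an FPKM per gene; their log2 fold change, adjusted p-value and read counts were used here, and the normalised signal and FPKM were not.

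In 2212 of 21983 rows of the deposited count table, a long name occupies 2 cells and the last cell holds the values of 2 columns, so that these columns of the deposited table are partly text. The values were put back. In 98 of 107 such genes the treated ECM 4 value differed from the authors' comparison tables, and it was left out, while 0 of 1442 other values differed. The 26 rows whose names had become dates or were not unique were dropped. GENCODE M21 matched 21871 of the 21957 genes kept by symbol.

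After TMM scaling and filterByExpr (minimum count 10), counts were tested with edgeR 4.0.16 (R 4.3.3) by glmQLFit and glmQLFTest in 1 model with a mean per group. Genes with displaced rows were fitted on 11 libraries. Benjamini-Hochberg adjustment ran over 14599 genes in each comparison, with a threshold of 0.05. Standard errors came from the fold change and the F statistic, and 95% intervals from the t distribution with the moderated degrees of freedom. The fit was also run on simulated counts with the same spread for every gene and no GC differences between libraries. Changes were placed only in genes of higher counts, so the run does not cover genes as low as Tnf, Lta, Ltb and Tnfrsf25. RPKM used the union of exons. Other tools were matplotlib 3.10.9, pandas 2.3.3, numpy 2.4.6, Python 3.11.15, limma 3.58.1 and DESeq2 1.42.0.

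The 10 members, the pathway lists and the marker lists were chosen with earlier results of these data known. All 10 members are named. From each pathway list were named up to 4 called genes with the largest fold in ECM against control, no overlap between libraries and at least 1 CPM as the mean of the higher group, and any gene called in treated ECM against ECM; some genes that did not pass were named for their link to a member. Cd70, Tnfrsf19, Tnfrsf21, Ripk3, and genes named for a call in treated ECM against control, were chosen after their values were seen. A gene that the rule would name is not reported here. Libraries with the same number were not paired. Alternatives were another scaling, no filter, DESeq2, only the groups compared, a replicate block, other treatments of the displaced rows, a GC-content offset and leaving out libraries.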

Additional observations from a re-analysis of the deposited data

Results flagged for a closer look

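In groups of 4 libraries, the highest or lowest value was set against the gap to its nearest neighbour, and 4 of 25 groups had a value beyond Dixon's 95% limit, where chance gives about 1 in 20 for continuous values, a rate that does not apply to the few whole counts of Lta. Tnfrsf1a was 26.1 CPM in ECM 3, with the nearest ECM library at 34.4. Tnfsf13b was 1.84 CPM in ECM 4, with the nearest at 5. Lta was 0.205 CPM in ECM 4 (4 counts), with the nearest at 0.0794, and 0.107 CPM in control 1 (2 counts), with the other control libraries at 0.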

How the results depend on the processing

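No tested member changed direction in any alternative. Of their fold changes recomputed, 493 kept their side of the threshold, 21 gained a call and 7 lost it. A member that no longer passed the filter in an alternative has no fold change there, so calls lost in that way are not among the 7. Tnfsf10 was called in all 3 comparisons in all 12 omissions of 1 library and in the 10 other alternatives. In ECM against control, 6 members were called in each omission, 4 with only the groups compared (where Tnf did not pass the filter and Ltbr had an adjusted p of 0.0653) and 5 with the replicate block (Ltbr, 0.0565). Calls over all genes (1498) were 867 with only the groups compared, 2763 without control 4, ECM 2 and ECM 3 together, 2332 with the GC-content offset, which was chosen after seeing the data, and 1066 to 1693 in the omissions; pathway calls (27) were 16 with only the groups compared and 20 to 29 in the omissions. Member calls in treated ECM against ECM (2) were 4 with DESeq2 (Tnfsf13b and Tnfrsf1a added). They were 1 with only the groups compared, where Tnfrsf25 did not pass the filter, and 1 with the replicate block. Without the 3 libraries they were 4, with the GC-content offset 5 (Tnfrsf1a, Tnfrsf1b and Ltbr added), and in the omissions 1 to 4. Calls over all genes (1217) were 2143 with DESeq2, 539 with the replicate block, 639 without treated ECM 4, 2261 without the 3 libraries, 2166 with the GC-content offset and 550 to 2085 in the omissions, the highest without control 4. Pathway calls (9) were 17, 4, 16 and 19 with DESeq2, the replicate block, without the 3 libraries and with the GC-content offset, and 4 to 18 in the omissions. Member calls in treated ECM against control (1) were 3 with DESeq2 (Tnf and Tnfrsf1a added), 2 with treated ECM 4 from the authors' tables, 2 without the 3 libraries, 2 with the GC-content offset and 1 to 2 in the omissions; calls over all genes (298) were 455 with DESeq2, 467 without the 3 libraries and 226 to 321 in the omissions, and pathway calls (12) were 8 to 12 in the omissions. The cause of these changes was not tested. Libraries with the same number share only a number: their deviations correlated at -0.571 to 0.282, and 1 of 12 libraries correlated best with its own number. With the replicate block, Tnfrsf25 in treated ECM against ECM had a log2 difference of 4.06 (edgeR adjusted p = 0.0868). Depth limits Tnf, Lta, Ltb and Tnfrsf25, which had from 0 to 55 counts in any library.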
